A study of Mus musculus with 6 samples.

Results

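The aldo-keto reductases described here are 10 mouse genes, taken by symbol from the 22274 genes of the deposited table: Akr1c6, Akr1c12, Akr1c13, Akr1c14, Akr1c18, Akr1c19, Akr1c20, Akr1d1, Akr1b7 and Akr1a1. All 10 symbols were found once. They were measured by mRNA sequencing of whole liver from C57 mice that carried an adenovirus for mouse Dyrk1b (Ad-Dyrk1b, 3 samples) or a control adenovirus (Ad-EGFP, 3 samples). Every animal was therefore infected with an adenovirus, and no uninfected liver was compared. The labels used here give no age, sex, virus dose or time after infection, nor whether each sample came from its own mouse. The genes were selected on earlier results for the measured difference between these groups, so fold changes and calls of these 10 genes are a description and support no claim about the family.

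Aldo-keto reductases use NADPH or NADH to turn aldehydes and ketones into alcohols, and many also run the reverse reaction. Several Akr1c enzymes, not all, act as 3-alpha-, 17-beta- or 20-alpha-hydroxysteroid dehydrogenases. These switch androgens, oestrogens and progesterone between more and less active forms. Akr1d1 is the steroid 5-beta-reductase of the liver, needed for bile acid synthesis and for clearance of steroid hormones with a 4-ene-3-one group. Akr1b7 and Akr1a1 belong to the aldose and aldehyde reductase branches, which reduce reactive aldehydes. Akr1a1 also serves the pathway by which mice make ascorbate.

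Total counts per library ranged from 17326516 to 20024888. Dyrk1b stood at 62.2 to 101 FPKM (fragments scaled to gene length and library size) in Ad-Dyrk1b livers and 3.81 to 4.97 FPKM in Ad-EGFP livers. Pearson's r of log2 expression was 0.982 to 0.986 between libraries of 1 group and 0.960 to 0.970 between libraries of different groups; these are correlations over genes, and genes are not replicates. The summed level of 8 hepatocyte markers was 63360 to 78310 CPM (counts scaled to library size) in Ad-Dyrk1b livers and 78650 to 82460 CPM in Ad-EGFP livers, and edgeR called 0 of the 8 (2 at an unadjusted p under 0.05). Alb alone gave 51450 to 66270 CPM in Ad-Dyrk1b livers and 65670 to 68670 CPM in Ad-EGFP livers. Marker sums here and below are scaled to total counts, without the normalization factors used in edgeR's fit. These factors were 0.934 to 1.02 in Ad-Dyrk1b libraries and 1.01 to 1.05 in Ad-EGFP libraries. The ranges therefore do not compare the groups on the scale of the fit. FPKM values were used as deposited, also without these factors. Levels in FPKM and log2 fold changes given below therefore need not match in size or sign. The 6 erythroid markers summed to 3694 CPM in Ad-Dyrk1b replicate 3, against 886 and 1044 CPM in the other Ad-Dyrk1b livers and 528 to 875 CPM in Ad-EGFP livers.

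In control livers these genes were far from equal in level. Akr1a1 was the most abundant at 367 ± 26.5 FPKM and Akr1c6 came next at 258 ± 9.27 FPKM in Ad-EGFP livers (SD, n = 3), and neither overlapped its neighbour in the order. Akr1c19, Akr1c14, Akr1c13, Akr1d1 and Akr1c20 followed at 101 to 87.5 FPKM, and each overlapped the next in this order. Akr1c12 lay below them at 71.1 ± 0.600 FPKM, and Akr1b7 and Akr1c18 were the lowest at 8.0 ± 0.583 and 1.84 ± 0.181 FPKM. In Ad-Dyrk1b livers Akr1a1 and Akr1c6 overlapped, at 331 ± 34.1 and 327 ± 25.7 FPKM (SD, n = 3). Akr1c19 and Akr1c13 came next at 158 ± 11.3 and 132 ± 31.3 FPKM and also overlapped. Akr1c18 and Akr1b7 remained the lowest, at 26.7 ± 7.66 and 24.6 ± 3.42 FPKM, and overlapped each other.

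**Figure D1:**
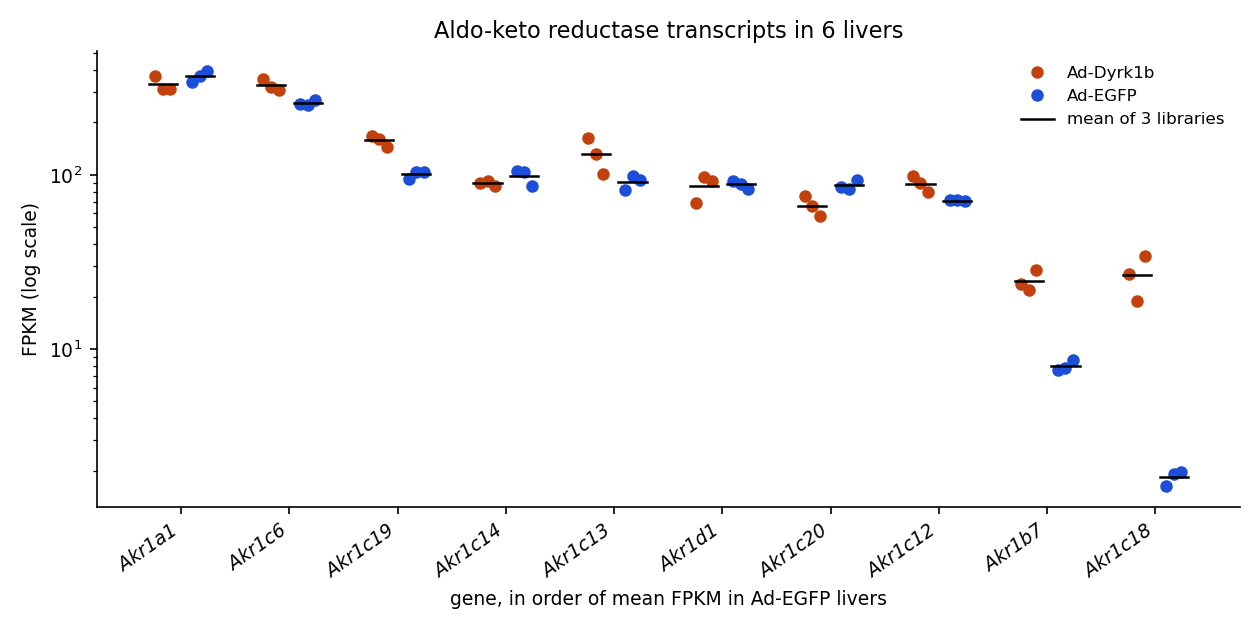
Level of each aldo-keto reductase gene (FPKM, log scale) in Ad-Dyrk1b (left, orange) and Ad-EGFP (right, blue) livers, with 1 point per library and a line at the mean of 3 libraries. Akr1c18 and Akr1b7 lie lowest in Ad-EGFP livers and show the widest gaps between groups, while Akr1a1, Akr1c14 and Akr1d1 overlap.

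Akr1c18 had the largest difference of the 10. It encodes the 20-alpha-hydroxysteroid dehydrogenase that inactivates progesterone, an enzyme best known from the ovary at the end of pregnancy. It had 621, 449 and 725 counts in Ad-Dyrk1b livers, against 35, 40 and 41 counts in Ad-EGFP livers. These corresponded to 27.1, 18.8 and 34.1 FPKM in Ad-Dyrk1b livers and 1.63, 1.91 and 1.97 FPKM in Ad-EGFP livers. The lowest Ad-Dyrk1b library stood well above the highest Ad-EGFP library, and the Ad-Dyrk1b libraries also differed more among themselves. The log2 fold change in edgeR's fit over all genes, Ad-Dyrk1b over Ad-EGFP, was 3.93 ± 0.22 (standard error), or 15.2-fold, and it was 3.71 to 4.11 with any 1 library left out.

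Akr1c18 nevertheless remained a small part of the Akr1c output. It made up 2.78%, 2.14% and 4.2% of the summed FPKM of the 7 Akr1c genes in Ad-Dyrk1b replicates 1, 2 and 3, and 0.235%, 0.268% and 0.274% in Ad-EGFP replicates 1, 2 and 3. Akr1c6 held 36.4% to 37.7% of that sum in Ad-Dyrk1b livers and 35.1% to 37.4% in Ad-EGFP livers, so its share overlapped between groups. The summed FPKM itself was 977, 879 and 811 in Ad-Dyrk1b livers and 695, 713 and 718 in Ad-EGFP livers.

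Akr1b7 had the second largest difference. It encodes an aldose reductase-like protein known in mice from the vas deferens and the adrenal cortex, where it reduces isocaproaldehyde formed during steroid synthesis. Its level was 23.6, 21.8 and 28.4 FPKM in Ad-Dyrk1b livers, against 7.53, 7.81 and 8.65 FPKM in Ad-EGFP livers. The groups were clearly apart, with a log2 fold change of 1.71 ± 0.14, or 3.26-fold. Since Akr1b7 and Akr1c18 are also adrenal genes in mice, markers of adrenal cortex were read in the same libraries. Nr5a1, Cyp11a1 and Mc2r had 0 counts in all 6 libraries, and Cyp11b1 and Cyp11b2 had 0 to 2 counts in each. The 7 adrenal markers summed to 6.15 to 9.06 CPM in Ad-Dyrk1b livers and 9.42 to 10.4 CPM in Ad-EGFP livers, nearly all of it from Cyp21a1 and Star. Only these 2 were tested, and they went opposite ways. Cyp21a1 was called lower (-0.74 ± 0.21), a call lost whichever library was left out, and Star was not called (0.44 ± 0.25).

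The remaining genes of higher level belong to the Akr1c cluster and moved by smaller steps. Akr1c19 stood at 168, 160 and 145 FPKM in Ad-Dyrk1b livers and 94.9, 103 and 104 FPKM in Ad-EGFP livers. It had a log2 fold change of 0.76 ± 0.10. Akr1c13 stood at 163, 132 and 101 FPKM in Ad-Dyrk1b livers and 81.5, 98.8 and 93.4 FPKM in Ad-EGFP livers. Its libraries spread widely in Ad-Dyrk1b livers, replicate 3 came close to the highest Ad-EGFP library, and the log2 fold change was 0.64 ± 0.15. Akr1c12 was at 97.9, 89.2 and 79.8 FPKM in Ad-Dyrk1b livers and 71.3, 71.6 and 70.4 FPKM in Ad-EGFP livers, a log2 fold change of 0.41 ± 0.10. Akr1c6, the 17-beta-hydroxysteroid dehydrogenase that interconverts androstenedione and testosterone, was at 355, 320 and 305 FPKM in Ad-Dyrk1b livers and 255, 250.5 and 268 FPKM in Ad-EGFP livers. Its log2 fold change was 0.42 ± 0.11, and its groups did not overlap. The activities and substrates of the enzymes were not measured here.

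Akr1c20 was the 1 gene whose level in every Ad-Dyrk1b library lay below every Ad-EGFP library. It stood at 75.3, 65.8 and 58.3 FPKM in Ad-Dyrk1b livers, against 85.6, 83.1 and 93.9 FPKM in Ad-EGFP livers. Its log2 fold change of -0.33 ± 0.11 was not called in the fit over all genes. It was negative in all 12 alternative settings.

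Akr1c14, Akr1d1 and Akr1a1, which overlapped between groups, include the enzymes of the main hepatic ring reductions. Akr1c14, the 3-alpha-hydroxysteroid dehydrogenase, was at 90.2, 91.8 and 86.7 FPKM in Ad-Dyrk1b livers and 105, 104 and 86.0 FPKM in Ad-EGFP livers. Its log2 fold change was -0.05 ± 0.11, and 0.02 without Ad-EGFP replicate 1. Akr1d1 was at 69.2, 96.6 and 92.1 FPKM in Ad-Dyrk1b livers and 92.6, 88.9 and 83.3 FPKM in Ad-EGFP livers. Ad-Dyrk1b replicate 1 was its lowest library of all 6. Its log2 fold change was 0.05 ± 0.15 and turned negative with limma-trend on log2(FPKM + 1) (-0.05) and without Ad-Dyrk1b replicate 2 (-0.07) or 3 (-0.0015). Akr1a1 was at 369.93, 310.92 and 310.81 FPKM in Ad-Dyrk1b livers and 339.61, 369.95 and 392.38 FPKM in Ad-EGFP livers. Its log2 fold change was -0.07 ± 0.11. A missed threshold does not show that levels were equal.

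**Figure D2:**
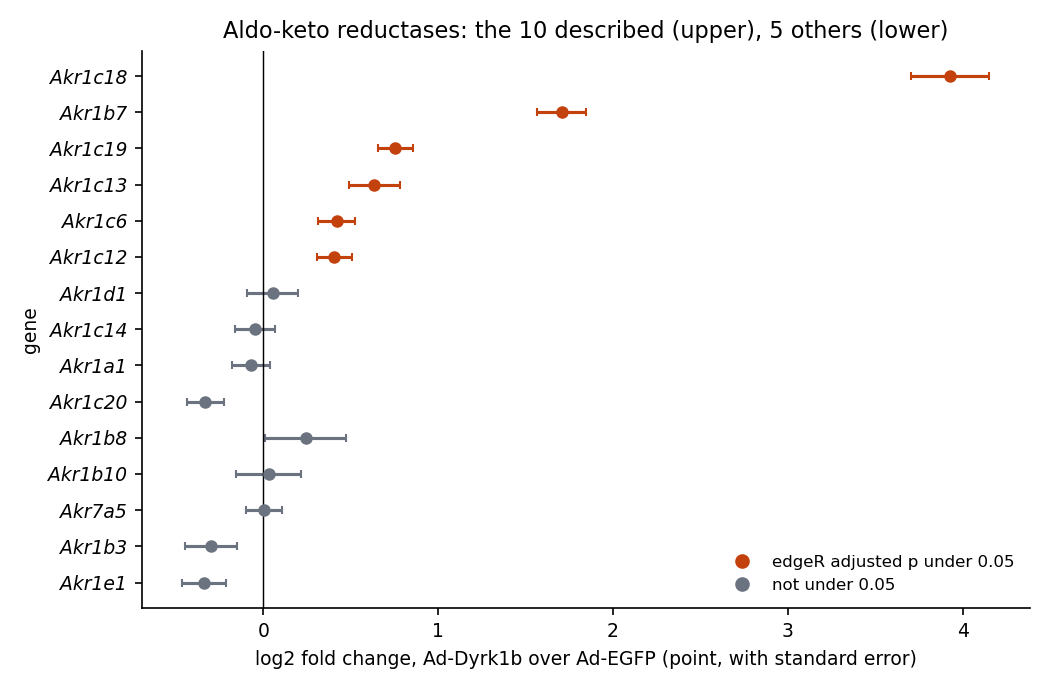
Log2 fold change, Ad-Dyrk1b over Ad-EGFP, with its standard error from edgeR's fit over all genes, for the 10 described aldo-keto reductases (upper rows) and 5 other tested ones (lower rows). Orange points were called (adjusted p under 0.05). Akr1c18 (3.93) and Akr1b7 (1.71) lie apart, and the called points all lie to the right of 0.

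All 10 genes passed the filter on low counts, with 35 or more counts in every library. The fit called 6 of them higher (Akr1c18, Akr1b7, Akr1c19, Akr1c13, Akr1c6 and Akr1c12) and 0 lower, where 12.2% of the 13201 tested genes were called, 7.36% higher and 4.81% lower. At an unadjusted p under 0.05 edgeR had 1 lower, and DESeq2 and limma-trend called 0 lower. The groups did not overlap for 7 of the 10, 6 higher and 1 lower (33.5% of all tested genes in either direction, 16.8% higher and 16.7% lower). Their median log2 fold change was 0.41, beside -0.00498 over all tested genes. Because this comparison chose the genes, nothing is read from these counts. Only 3 of the 6 calls (Akr1c18, Akr1b7 and Akr1c19) were made with every 1 library left out. The count was 3 when Ad-EGFP replicate 1, Ad-EGFP replicate 3, Ad-Dyrk1b replicate 1 or Ad-Dyrk1b replicate 2 was left out, 4 without Ad-EGFP replicate 2 and 6 without Ad-Dyrk1b replicate 3.

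The 3 Ad-Dyrk1b libraries did not rank the genes alike. Replicate 3, the library with the high erythroid sum, was the lowest of its group on the log2 CPM scale for 6 of the 10 genes (Akr1c6, Akr1c12, Akr1c13, Akr1c19, Akr1c20 and Akr1a1), and in FPKM for Akr1c14 as well. It was the highest, on both scales, for the other 2 called genes, Akr1c18 and Akr1b7. In whole liver, fewer cells of a type and less RNA per cell cannot be told apart. Markers of bile duct cells summed to 317 to 433 CPM in Ad-Dyrk1b livers and 200.4 to 247 CPM in Ad-EGFP livers, with 1 of 5 called higher (Spp1, 0.85 ± 0.13). Spp1 alone gave 300 to 413 CPM in Ad-Dyrk1b livers and 187 to 233 CPM in Ad-EGFP livers, so the sum is largely this gene. In CPM, Krt7, Krt19 and Epcam overlapped between groups, and Sox9 was higher in Ad-Dyrk1b livers. Kupffer cell and leukocyte markers summed to 678 to 923 CPM in Ad-Dyrk1b livers and 421 to 711 CPM in Ad-EGFP livers, and edgeR called 0 of 7 (4 at an unadjusted p under 0.05, all higher). It also called 0 of the 6 erythroid markers (0 at an unadjusted p under 0.05). Endothelial markers summed to 148 to 224 CPM in Ad-Dyrk1b livers and 103 to 168 CPM in Ad-EGFP livers, and edgeR called 0 of 5 (2 at an unadjusted p under 0.05). Stellate cell markers summed to 222 to 336 CPM in Ad-Dyrk1b livers and 238 to 334 CPM in Ad-EGFP livers, and edgeR called 0 of 5 (0 at an unadjusted p under 0.05). The 7 kidney tubule markers summed to 2.05 CPM or less in every library, and 0 passed the filter on low counts. Lrp2 had 2, 40 and 26 counts in Ad-Dyrk1b livers and 2, 1 and 0 counts in Ad-EGFP livers. The other kidney markers had 0 to 3 counts in each library. The part of these marker levels in the values above was not tested.

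The 7 Akr1c genes lie within 560.2 kb of chromosome 13 (mm10, 4049011 to 4609174, together with Akr1c21 and Akr1e1). Genes of other families between them were not looked for. From the Akr1c14 end the order is Akr1c14, Akr1c18, Akr1c13, Akr1c19, Akr1c12, Akr1c6, Akr1c20, Akr1c21 and Akr1e1, with 5 genes on the plus strand and 4 on the minus strand. The log2 fold changes in that order were -0.05, 3.93, 0.64, 0.76, 0.41, 0.42 and -0.33, then -0.34 ± 0.13 for Akr1e1. Akr1c18 (4132615 to 4150654, minus strand) thus had its large difference between Akr1c14 and Akr1c13, with small ones on both sides. Akr1c21 had 0, 0 and 2 counts in Ad-Dyrk1b livers and 2, 4 and 3 counts in Ad-EGFP livers, too few to test. Outside this cluster, Akr1b7 (34412334 to 34423142) and Akr1d1 (37530173 to 37568815) lie on chromosome 6 and Akr1a1 (116636510 to 116651680) on chromosome 4.

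**Figure D3:**
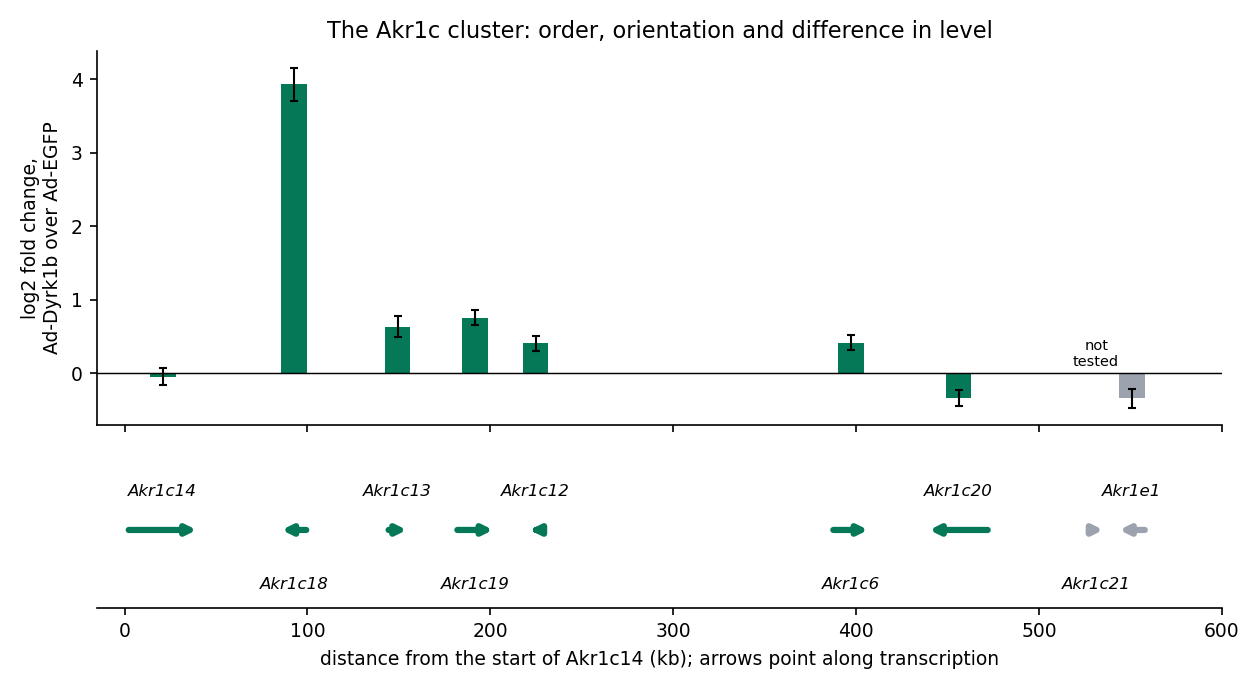
Upper panel, log2 fold change (Ad-Dyrk1b over Ad-EGFP, bars with standard error) of each gene of the Akr1c cluster. Lower panel, position and orientation in kb from the start of Akr1c14, with arrows along transcription and grey for genes outside the 10. The bar of Akr1c18 (3.93) stands between those of Akr1c14 (-0.05) and Akr1c13 (0.64).

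The coding sequences of the cluster are close enough that copies could share reads, so identity was computed from GENCODE transcripts. All 7 Akr1c coding sequences have 969 bases. Over their 21 pairs identity ran from 72.3% to 96.2%, with a median of 74.0%. Akr1c12 and Akr1c13 form the closest pair at 96.2%, and 11.5% of the 100-base stretches of each transcript are also found in the other. Their separate values are therefore uncertain, by an amount that this share does not measure. Akr1c6 and Akr1c20 are the next pair at 92.3%, yet share no stretch of 100 bases, and they lay on opposite sides of 0 (0.42 ± 0.11 and -0.33 ± 0.11). Akr1c18 is at most 76.7% identical to any other of the 7 and shared no 100-base stretch with another gene. Akr1c14, Akr1c19 and Akr1b7 overlap exons of the pseudogenes Gm18857, Marcksl1-ps4 and Gm13857. How reads matching several copies were counted, and with which strand setting, was not found in the labels or file headers.

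**Figure D4:**
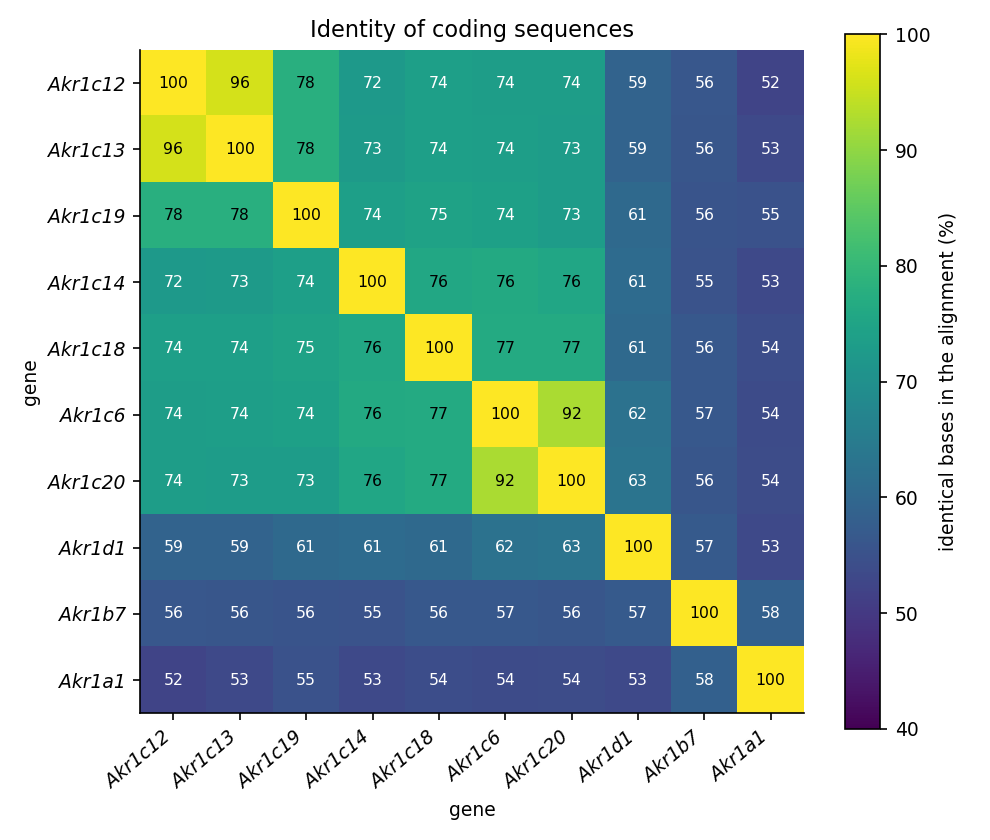
Identity of the coding sequences (percent of aligned columns, whole numbers in the cells) for each pair of the 10 genes. Akr1c12 with Akr1c13 (96.2%) and Akr1c6 with Akr1c20 (92.3%) stand out, while Akr1d1, Akr1b7 and Akr1a1 are distant from the Akr1c block.

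Promoter windows were read from RefSeq (build GRCm38.p6, the assembly behind mm10) as the 250 bases before the annotated start, and 9 of the 10 genes matched. Akr1c12 and Akr1c13 share most of this window as well. Their windows were 92.5% identical in a global alignment, against 42.4% to 58.7% (median 46.5%) for the other 14 Akr1c pairs with a window. This pair, whose levels cannot be fully separated, is shown with capitals for bases that differ or have no partner in the alignment, 15 in each.
Akr1c12 (chr13:4279400-4279649, minus strand): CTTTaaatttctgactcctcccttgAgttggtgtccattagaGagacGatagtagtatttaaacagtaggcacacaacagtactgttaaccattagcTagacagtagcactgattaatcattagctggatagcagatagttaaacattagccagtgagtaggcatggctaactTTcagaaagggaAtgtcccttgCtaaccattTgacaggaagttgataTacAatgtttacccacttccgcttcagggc
Akr1c13 (chr13:4190937-4191186, plus strand): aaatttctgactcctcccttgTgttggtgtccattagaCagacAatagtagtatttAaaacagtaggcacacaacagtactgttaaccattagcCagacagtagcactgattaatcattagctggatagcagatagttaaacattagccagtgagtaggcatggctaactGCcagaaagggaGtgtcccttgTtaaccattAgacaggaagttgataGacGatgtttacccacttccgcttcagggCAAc

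The windows of the 3 genes called with every 1 library left out are shown next, and capitals mark matches to the 6 motifs searched. All 5 windows shown reach into the GENCODE gene, whose start differs from that in RefSeq, and the Akr1c19 window lies wholly inside its gene, which begins at 4228700.
Akr1c18 (chr13:4150647-4150896, minus strand): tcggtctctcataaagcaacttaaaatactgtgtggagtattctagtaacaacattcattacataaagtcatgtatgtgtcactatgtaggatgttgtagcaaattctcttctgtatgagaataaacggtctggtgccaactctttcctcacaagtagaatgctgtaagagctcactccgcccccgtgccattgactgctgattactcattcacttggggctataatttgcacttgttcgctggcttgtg
Akr1b7 (chr6:34412112-34412361, plus strand): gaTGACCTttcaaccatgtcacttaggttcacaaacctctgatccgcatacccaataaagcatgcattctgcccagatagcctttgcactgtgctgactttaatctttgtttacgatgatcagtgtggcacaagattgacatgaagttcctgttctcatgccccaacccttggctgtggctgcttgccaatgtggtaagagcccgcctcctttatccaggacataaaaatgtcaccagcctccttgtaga
Akr1c19 (chr13:4233490-4233739, plus strand): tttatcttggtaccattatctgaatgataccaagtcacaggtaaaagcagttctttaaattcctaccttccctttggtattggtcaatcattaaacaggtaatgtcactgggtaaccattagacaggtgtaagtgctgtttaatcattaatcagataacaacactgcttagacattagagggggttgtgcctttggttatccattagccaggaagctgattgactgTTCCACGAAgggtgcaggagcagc

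The motifs were TTCNNNGAA (letters bound by STAT factors), TGACNNNGC (antioxidant response element), AGGTCA (a nuclear receptor site), CAAAGTCCA (HNF4), TTGCGCAA (C/EBP) and TATAAA, each searched on both strands. TTCNNNGAA occurred in Akr1c19, as TTCCACGAA 24 to 16 bases before the start, and in 7.02% of all 32851 promoter windows. AGGTCA occurred in Akr1b7 (248 to 243 bases before the start) and at 2 places in Akr1d1, and in 14% of all windows. TATAAA occurred in Akr1c6 and in 12.4% of all windows. TGACNNNGC, CAAAGTCCA and TTGCGCAA, held by 10.2%, 0.384% and 0.164% of all windows, had 0 matches in the 9. No match overlapped another. The window of Akr1c18 held 0 matches to the 6 motifs, which says only that these letters are not in these 250 bases.

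Of 7 other aldo-keto reductase genes, 5 could be tested and edgeR called 0 (1 at an unadjusted p under 0.05), as did DESeq2 and limma-trend. The edgeR fit called 12.2% of all tested genes. Akr1b8 and Akr1b10, neighbours of Akr1b7 on chromosome 6, were at 4.92 ± 1.52 and 4.92 ± 0.607 FPKM in Ad-Dyrk1b livers and 4.39 ± 0.850 and 5.11 ± 0.881 FPKM in the Ad-EGFP group (SD, n = 3 each). Their log2 fold changes were 0.24 ± 0.23 and 0.03 ± 0.19, and the sign for Akr1b10 differed between settings. Akr1b3, the classical aldose reductase, had -0.30 ± 0.15 (edgeR adjusted p = 0.205), and Akr7a5 had 0.00436 ± 0.10 (edgeR adjusted p = 0.984). Akr1e1 had -0.34 ± 0.13 (edgeR adjusted p = 0.0988). The level of Akr1cl was 0 in every library, which allows up to 0.150 to 0.173 CPM (3 counts per library, counting error only).

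Several Akr1c enzymes act on steroids that other enzymes make or remove. Of 32 further steroid genes, 30 were found and 22 tested, with a median log2 fold change of 0.12. The edgeR fit called 6 higher and 3 lower (8 higher and 5 lower at an unadjusted p under 0.05). Over all tested genes 7.36% were called higher and 4.81% lower, with a median of -0.00498. Srd5a1, the 5-alpha-reductase whose products the 3-alpha-reductases take up, was at 24.0 ± 4.96 FPKM in Ad-Dyrk1b livers, against 11.3 ± 2.78 FPKM in the Ad-EGFP group (SD, n = 3 each). It rose by 1.17 ± 0.22 (edgeR adjusted p = 0.0128), a call lost without Ad-EGFP replicate 3 (edgeR adjusted p = 0.0536; range 0.00124 to 0.0536). Hsd11b1, which regenerates active glucocorticoid, was at 294 ± 39.8 FPKM in Ad-Dyrk1b livers, against 105 ± 13 FPKM in the Ad-EGFP group (SD, n = 3 each). It rose by 1.57 ± 0.15 (edgeR adjusted p = 3.81e-05).

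Other steroid genes moved both ways. Hsd3b1, a 3-beta-hydroxysteroid dehydrogenase, rose by 3.19 ± 0.32 at a low level (5.21 ± 1.85 FPKM in Ad-Dyrk1b livers, against 0.613 ± 0.110 FPKM in the Ad-EGFP group; SD, n = 3 each; edgeR adjusted p = 7.38e-05). Hsd3b2 fell by 0.63 ± 0.16 (edgeR adjusted p = 0.0245). Leaving out replicate 1 or replicate 3 of either group ended this call (edgeR adjusted p = 0.0125 to 0.1 over the fits with 1 library fewer). Members of the Hsd3b family are close copies, so their single values are uncertain. Hsd3b5 was listed at 0.65 FPKM or less in every library and was not tested. Hsd17b7 and Hsd17b12, placed by name in the 17-beta-hydroxysteroid dehydrogenase family, rose by 0.70 ± 0.14 and 0.48 ± 0.10 (edgeR adjusted p = 0.00715 and 0.00942). The name does not show which substrate they act on in liver. Sult1e1, the oestrogen sulfotransferase, was at 72.8 ± 4.68 FPKM in Ad-Dyrk1b livers, against 160 ± 16.9 FPKM in the Ad-EGFP group (SD, n = 3 each), and fell by 1.05 ± 0.11 (edgeR adjusted p = 7.75e-05).

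Cyp17a1, the 17-alpha-hydroxylase, rose by 1.49 ± 0.30 (edgeR adjusted p = 0.0265). Its level was 54.4, 92.7 and 123 FPKM in Ad-Dyrk1b livers, against 34.7, 34.6 and 32.9 FPKM in Ad-EGFP livers. Leaving out any 1 Ad-EGFP library or Ad-Dyrk1b replicate 2 ended the call (edgeR adjusted p = 1.3e-05 to 0.119), as did dropping the filter on low counts (edgeR adjusted p = 0.0734). Cyp21a1 fell by 0.74 ± 0.21 (edgeR adjusted p = 0.0361), and leaving out whichever 1 library ended the call (edgeR adjusted p = 0.0594 to 0.0996).

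**Figure D5:**
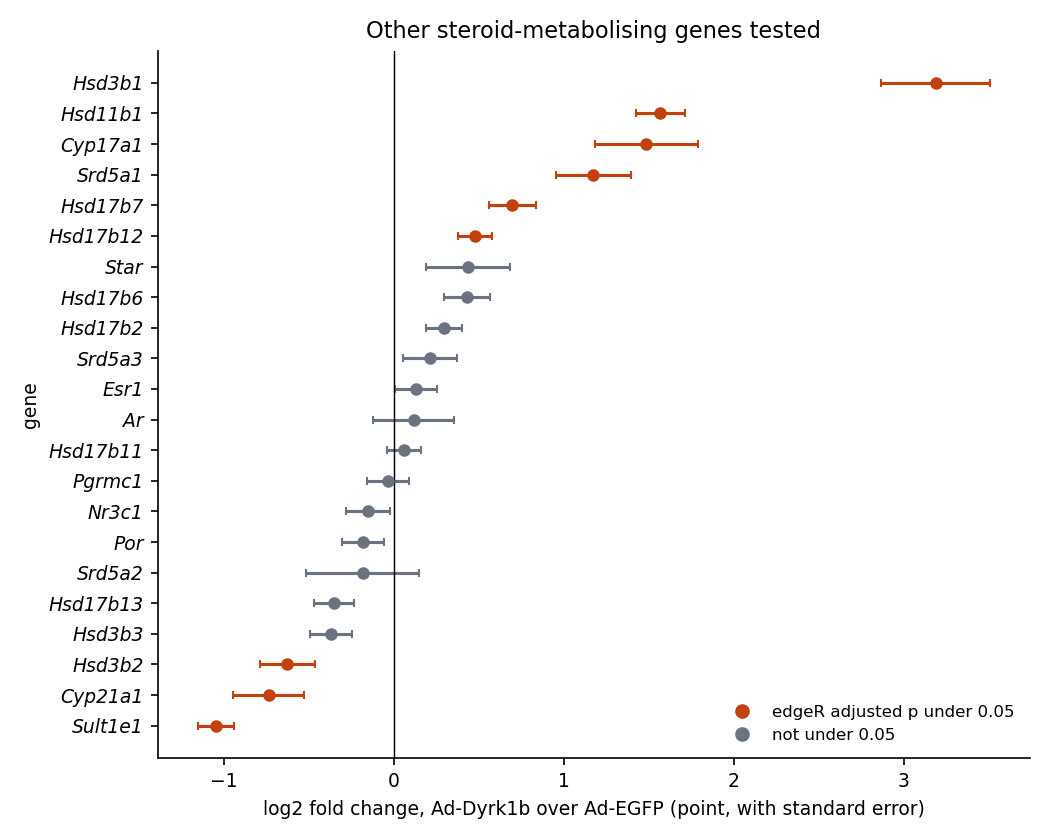
Log2 fold change, Ad-Dyrk1b over Ad-EGFP, with standard error, for the 22 tested genes of the list of other steroid genes, in order of size. Orange points were called (adjusted p under 0.05), with 6 to the right of 0 and 3 to the left, from Hsd3b1 (3.19) to Sult1e1 (-1.05).

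Akr1d1 and Akr1c14 act on bile acid precursors after the sterol ring has been hydroxylated. Of 15 further bile acid synthesis genes, all tested, edgeR called 2 higher and 1 lower (3 higher and 2 lower at an unadjusted p under 0.05). Their median log2 fold change was -0.00476. The share over all tested genes was 7.36% higher and 4.81% lower, with a median of -0.00498. Cyp7a1, Cyp8b1, Cyp27a1 and Hsd3b7, which start the pathway or act just before Akr1d1, had log2 fold changes of 0.05 ± 0.29, 0.11 ± 0.29, -0.00476 ± 0.10 and 0.11 ± 0.10. They were not called (edgeR adjusted p = 0.936, 0.843, 0.982 and 0.524), and the first 3 changed sign between settings. The bile acid ligase gene Slc27a5 rose by 0.60 ± 0.13 (edgeR adjusted p = 0.0116). Slc27a2, an acyl-CoA synthetase, rose by 0.42 ± 0.12 (edgeR adjusted p = 0.0415), a call kept only without Ad-Dyrk1b replicate 1 among the fits with 1 library left out (edgeR adjusted p = 0.0337 to 0.145). It was also lost with limma-trend on FPKM (limma adjusted p = 0.0978 and 0.0970). Cyp39a1, an oxysterol hydroxylase, fell by 0.41 ± 0.10 (edgeR adjusted p = 0.0180). Leaving out Ad-EGFP replicate 3, Ad-Dyrk1b replicate 1 or Ad-Dyrk1b replicate 2 ended this call (edgeR adjusted p = 0.0272 to 0.0584). The list had 1 call without Ad-Dyrk1b replicate 2 or without Ad-EGFP replicate 3.

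Akr1a1 reduces glucuronate to gulonate, the step before regucalcin (Rgn) and gulonolactone oxidase (Gulo) in ascorbate synthesis. Of 20 genes of glucuronate, ascorbate and aldehyde metabolism, all tested, edgeR called 5 higher and 0 lower, with a median log2 fold change of 0.06. Among all tested genes 7.36% were called higher and 4.81% lower, with a median of -0.00498. At an unadjusted p under 0.05 edgeR had 2 lower, and DESeq2 and limma-trend called 0 lower. Rgn was at 256, 256 and 336 FPKM in Ad-Dyrk1b livers and 206, 147 and 171 FPKM in Ad-EGFP livers, and rose by 0.78 ± 0.16 (edgeR adjusted p = 0.00918). Gulo was at 70.7, 71.0 and 113 FPKM in Ad-Dyrk1b livers and 43.8, 53.7 and 50.5 FPKM in Ad-EGFP livers. It rose by 0.87 ± 0.18 (edgeR adjusted p = 0.0148), a call lost without Ad-EGFP replicate 1 or 3 (edgeR adjusted p = 0.0623 and 0.0501; lowest 0.00621). For both genes Ad-Dyrk1b replicate 3 was the highest library. Ugdh, which makes the UDP-glucuronate upstream of Akr1a1, had 0.28 ± 0.13 (edgeR adjusted p = 0.177).

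The alcohol dehydrogenase gene Adh4 rose by 1.05 ± 0.11 (edgeR adjusted p = 8.32e-05). The aldehyde dehydrogenase genes Aldh1a1 and Aldh9a1 rose by 0.52 ± 0.13 and 0.36 ± 0.10 (edgeR adjusted p = 0.0230 and 0.0420). Aldh1a1 was no longer called after leaving out Ad-EGFP replicate 1, Ad-EGFP replicate 3 or Ad-Dyrk1b replicate 2 (edgeR adjusted p = 0.0211 to 0.105). Aldh9a1 was called in 1 of the 6 fits with a library left out, that lacking Ad-Dyrk1b replicate 1 (edgeR adjusted p = 0.0436 to 0.141). Neither was called by limma-trend on log2(FPKM + 1) (limma adjusted p = 0.0646 and 0.109). The list had 2 calls without Ad-EGFP replicate 1 or 3 and 3 calls without Ad-Dyrk1b replicate 2.

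The genes most like Akr1a1 and Akr1c18 in pattern were sought over the 6 libraries, among 11286 tested genes at a mean of 1 FPKM or more. For Akr1a1, the most abundant, these were Atp6v1c1, Gpn1 and Cct6a, with Pearson's r of log2 CPM of 0.9992, 0.9929 and 0.9917. For Akr1c18, of largest difference, they were Fabp6, Cs and Timp4, with r of 0.9985, 0.9961 and 0.9939. An r of 0.95 or more was reached by 22 genes for Akr1a1 and by 230 genes for Akr1c18. These are descriptions of 6 points that share group and library, and a high r does not need a similar size. Fabp6 differed by 7.9 on the log2 scale, at a mean of only 1.67 FPKM. Cs differed by 0.21 and Timp4 by 2.23, against 3.93 for Akr1c18.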

How the data were processed

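RNA was measured in 6 liver samples, 3 per group. Per the labels' protocols, libraries came from fragmented mRNA (NEBNext Ultra chemistry) and were read on an Illumina instrument. Per the submitters' processing notes, the build was mm10 and DESeq2 was used. Aligner, counter, strand setting and annotation: not given in the sources used here. The deposited table gives each gene, per the file headers, whole-number counts and an FPKM value in every library. It also holds the authors' log2 ratio of mean FPKM and a p-value, which were left aside.

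Each library was assigned to its group by the title label. The filter filterByExpr (minimum count 10, minimum total 15) left 13201 of 22274 genes. The groups were compared with edgeR 4.0.16 (R 4.3.3; TMM, robust quasi-likelihood F-test, two-sided, Benjamini-Hochberg over all tested genes, threshold 0.05). Since the labels name no separate animals, p-values reflect only spread among these libraries, possibly technical. The fit was tested on simulated data. Alternatives used DESeq2 1.42.0, its size factors, no filter, limma 3.58.1 (limma-trend) on log2(FPKM + 1) and log2(FPKM + 0.1), the replicate number as a block, and each library left out.

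The genes, lists and tests were chosen with earlier results of these data known. Named beside the 10 genes are called genes of 4 further lists, genes fixed by name and the 3 genes of most like pattern for both Akr1a1 and Akr1c18. Spp1 and other single marker genes were named after their values were seen. Of the alternatives, 2 library sizes for the summed Akr1c level were added after seeing the data. Coordinates and transcripts are from GENCODE M21, aligned with Biopython 1.88 (match 2, mismatch -1, gap open -5, extension -1).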

Additional observations from a re-analysis of the deposited data

How the results depend on the processing

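Counts of calls moved with single libraries and with limma-trend on FPKM, which changed the test, the normalization and the unit together. The 10 aldo-keto reductases had 6 calls with edgeR, with DESeq2 size factors, with DESeq2, without the filter and with the replicate block, and 3 with limma-trend on log2(FPKM + 1) or log2(FPKM + 0.1), and 3 to 6 with 1 library left out. Over all genes the 1607 calls became 909 to 1241 with 1 library left out, 1883 with the replicate block and 1278 and 1294 with limma-trend, where 44.3% and 44.0% of calls were higher, against 60.5% in the edgeR fit. The median log2 fold change of all genes was -0.0636 and -0.0825 in those limma-trend fits. With 1 library left out, the list of other aldo-keto reductases had 0 calls, the steroid list 5 to 7 (9 with all libraries), the bile acid list 1 to 3 (3 with all libraries) and the aldehyde list 2 to 5 (5 with all libraries). These are counts, not always of the same genes. The aldehyde list had 3 calls in either limma-trend fit, and the bile acid list had 2. The steroid list had 11 calls with DESeq2 (7 higher, 4 lower) and 11 in either limma-trend fit (6 higher, 5 lower).

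Signs turned for values near 0. On log2(FPKM + 1) and log2(FPKM + 0.1), Akr1d1 had -0.0516 and -0.0523, Akr1b10 -0.0408 and -0.0472, Cyp7a1 -0.0957 and -0.1, and Cyp8b1 -0.0537 and -0.0572. Cyp27a1 had 0.000779 with DESeq2 size factors and 0.000733 with DESeq2, and Cyp7a1 had -0.00598 with the replicate block. With 1 library left out, the range was -0.139 to 0.023 for Akr1c14, -0.0695 to 0.214 for Akr1d1, -0.066 to 0.155 for Akr1b10, -0.116 to 0.315 for Cyp7a1, -0.26 to 0.362 for Cyp8b1 and -0.0547 to 0.0275 for Cyp27a1. The summed CPM of the 7 Akr1c genes had a log2 ratio of group means of 0.36, 0.36 with DESeq2 size factors, 0.27 with total counts and 0.33 to 0.41 with 1 library left out. The setting with total counts leaves out the normalization factors of the edgeR fit. These were 0.934 to 1.02 in Ad-Dyrk1b libraries and 1.01 to 1.05 in Ad-EGFP libraries. The cause of the shifts in this paragraph was not tested.

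Replicate numbers were not taken as pairing the samples, since 1 of the same-numbered correlations of deviations from the group means was under 0.1 (0.0245, 0.172 and 0.108 for replicates 1, 2 and 3). Ad-Dyrk1b replicates 2 and 3 correlated best with their own number, and replicate 1 with Ad-EGFP replicate 3 (0.0845). These values cannot exclude pairing, since deviations cancel within each group and so tie the correlations to each other. With the replicate number as a block, 1883 genes were called, against 1607 in the main fit. Depth limits Akr1c21 and Akr1cl, which were too low to test.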
